A study of Drosophila melanogaster with 2 samples.

Results

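Binding of the Myc-network repressor Mnt was examined at 10 genes of the Hippo growth control pathway, out of 13945 protein-coding genes on the 6 major chromosome arms. The members were chosen by symbol in the dm6 annotation: yki, hpo, wts, sav, mats, ft, ds, ex, Mer and kibra. For each of them every region was taken whose summit, the base of strongest enrichment, lay between 2 kb upstream of the gene and its 3′ end, which is called the gene span here. The chromatin came from whole adult females of unknown age that stably carry Mnt fused at its C terminus to eGFP, and it was immunoprecipitated (ChIP-seq). The labels' description gives an antibody against GFP, while their antibody field reads Mnt. The series held 1 group of 2 biological replicates of the same transgenic line, so no condition was compared with another and no test between groups was possible. A whole fly mixes many tissues, and peak lists hold no expression values against which to check the tissue.

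The Hippo pathway is the kinase cascade that limits organ growth, worked out largely in the fly. Hippo with its scaffold Salvador activates Warts with its cofactor Mats, and Warts phosphorylates the coactivator Yorkie and keeps it out of the nucleus. Expanded, Merlin and Kibra act above the kinases at the apical cell cortex, and the giant cadherins Fat and Dachsous form a further input between neighbouring cells. Mnt, with its partner Max, is a repressor of growth that recognises the E-box CACGTG, the same site that Myc uses to promote growth.

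Mnt-eGFP was found at 7 of the 10 genes. The "optimal" list, cut at an irreproducible discovery rate by the authors, held 7451 peaks. In it, yki, hpo, wts, mats, ex, Mer and kibra held 11 summits in their spans, while sav, ft and ds held none. Over all protein-coding genes the share with an optimal summit in the span was 45.0%. For 6 of the 10, all of the former except wts, a summit lay within 500 bp of the gene's own transcription start site (TSS), against 38.1% of protein-coding genes. The signal, the authors' own value for each region, ran from 77.1 to 2444 in the optimal list. The strongest summit in the span had a median signal of 276 in the 7 genes and 181 in all protein-coding genes with one. In a mixture of tissues, strong binding in few cells and weaker binding in many cannot be told apart.

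**Figure D1:**
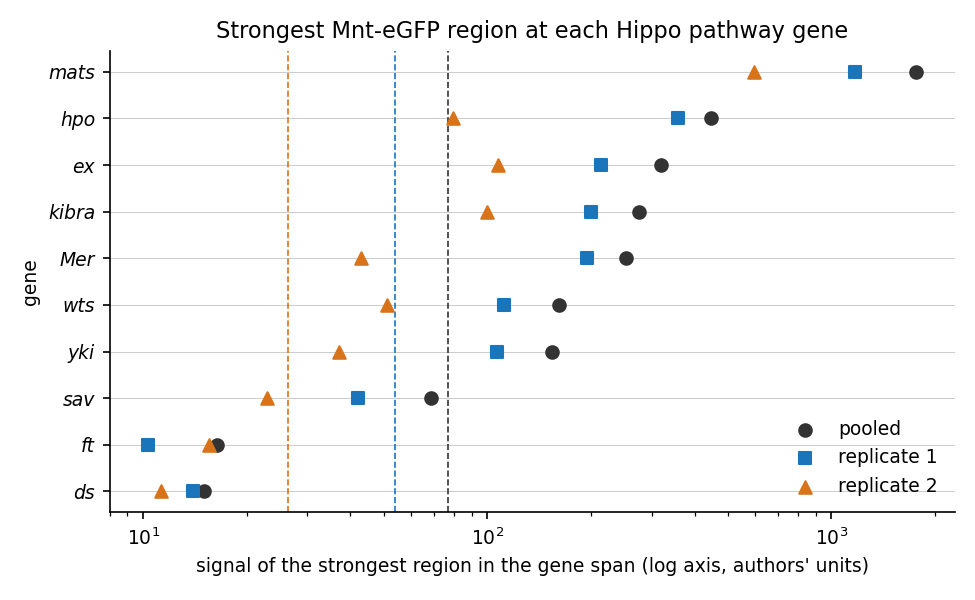
Signal of the strongest region in the span of each of the 10 genes (log axis, authors' units) in the pooled list, replicate 1 and replicate 2; dashed lines mark, in the same colours, the lowest optimal signal (77.1) and the signal of the region ranked 7451 in replicate 1 (54.0) and replicate 2 (26.3). In each list, 7 genes lie above the line, and sav, ft and ds below it.

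The nuclear effector of the pathway had only a weak summit at its own start. At yki (FBgn0034970), a gene of 2511 bp on chromosome 2R (24065975 to 24068485, minus strand), the region at the TSS had its summit at 24068491, 6 bp upstream, with a pooled signal of 80.9 and rank 7100 of 7451. The overlapping region of replicate 1 had a signal of 61.2 (rank 6549), and that of replicate 2, with its summit 207 bp away, had 25.8 (rank 7601). The yki start thus stood near the bottom of the optimal list, and just outside the 7451 strongest regions of replicate 2. A stronger summit in the yki span, 154 pooled (rank 3277), 107 in replicate 1 and 37.2 in replicate 2, lay 553 bp upstream of yki. It sat 12 bp upstream of a start of Gpat4, the gene that runs the other way from there. The yki start summit also lay within 500 bp of a Gpat4 start, at 266 bp, so the yki count rests on a start region that both genes share.

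The kinase that names the pathway had the strongest summit of the 10 genes among those not shared with another gene's start. The hpo gene (FBgn0261456) lies at 19493996 to 19496856 on the minus strand of chromosome 2R. Its summit, at 19496908, lay 52 bp upstream of the only annotated hpo TSS, in intergenic sequence, with a pooled signal of 447 and rank 498. Replicate 1 gave it a signal of 359 (rank 402) and replicate 2 one of 79.3 (rank 1616), so it ranked much higher in replicate 1. The summits of the replicates lay 8 and 6 bp from the pooled one. TATCGATA, the DNA replication-related element (DRE) that the transcription factor Dref binds, was found 80 bp from the hpo summit. Across all optimal summits, 6.19% had it within 100 bp.

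Salvador, the scaffold that joins Hippo to Warts, stood just under the threshold. The sav gene (FBgn0053193; chromosome 3R, 23058609 to 23061304, minus strand) had no optimal summit in its span, and the nearest lay 4466 bp from its TSS. The pooled list held 1 region there, with its summit 144 bp upstream of the TSS, a signal of 68.6 and rank 8318. The replicates had it at 112 and 164 bp upstream, with signals of 42.1 (rank 9431) and 22.9 (rank 8512). Both values were below those of the regions ranked 7451 in the same lists, 54.0 and 26.3. A region was therefore listed at the sav start in each replicate, at a strength that the authors' threshold did not pass.

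Mats, the Mob-family cofactor of Warts, had the strongest region of the 10 genes, and it shared that region with Nop56. The mats gene (FBgn0038965) lies at 22421161 to 22423302 on the plus strand of chromosome 3R. The summit, at 22421090, had a pooled signal of 1764 and rank 7 of all optimal peaks. Replicate 1 gave 1169 (rank 8) and replicate 2 gave 596 (rank 3). The region, 668 bp wide, was among the strongest of the whole genome in both replicates. The summit lay 71 bp upstream of the first mats TSS and 22 bp upstream of the TSS of Nop56, which encodes a protein of the snoRNA particles that modify ribosomal RNA and is transcribed away from mats. The E-box was the only CACGTG in the mats span, and it lay on the Nop56 side, in the Nop56 5′ UTR, centred 123 bp upstream of mats. Beside it lay GGTCACAC, the core promoter element Motif 1, in the reverse orientation. Which of the genes the signal belongs to cannot be told apart from peak positions. The E-box centre lay 52 bp from the summit. The RefSeq reference sequence (Release 6, dm6) is shown because only here in the 10 genes was CACGTG within 100 bp of an optimal summit. It reads in the direction of mats, 5′ to 3′, with the E-box and then Motif 1 in capitals. The interval between the starts follows it. It held none of the 8 motifs searched, on either strand.
mats E-box and Motif 1, chr3R:22421032-22421061, plus strand: tccCACGTGcttacttcaaGTGTGACCata
Interval from the Nop56 start to the mats start, chr3R:22421069-22421160, plus strand: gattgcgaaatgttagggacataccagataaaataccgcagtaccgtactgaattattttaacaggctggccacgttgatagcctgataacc

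Warts, the kinase that phosphorylates Yorkie, was the only member with an optimal summit in its span and none within 500 bp of its own TSS. The wts gene (FBgn0011739) lies at 30789625 to 30806619 on the minus strand of chromosome 3R. The stronger summit, at 30800600, lay in a 5′ UTR exon of wts 6019 bp downstream of its single annotated TSS. It had a pooled signal of 162 (rank 3040), 112 (rank 3054) in replicate 1 and 51.0 (rank 3380) in replicate 2, so the ranks were close. The weaker one lay in an intron, 3639 bp downstream of the TSS, with 90.1 pooled (rank 6342) and 80.8 (rank 4782) in replicate 1. In replicate 2 it had 12.0 and rank 15153, well outside the strongest 7451. Over the wts span the pooled list held 11 regions, and the highest one below the threshold, 648 bp downstream of the TSS, had a signal of 76.3. At the wts start itself the pooled region, 88 bp upstream, had a signal of 50.9 and rank 10872. Near it, replicate 1 listed 46.1 (rank 8689) and replicate 2 listed 6.65 (rank 29278). A further optimal summit, of signal 215, lay 2007 bp from the wts TSS in the 5′ UTR of the neighbour cindr, just beyond the 2 kb limit of the span.

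At the wts start, which had no optimal summit, TATCGATA occurred 3 times, centred 52 bp upstream and 6 and 20 bp downstream of the TSS. Kibra, a scaffold of the apical complex, had 2 copies, 42 and 84 bp upstream of its TSS. It also had an optimal start summit, but neither copy lay within 100 bp of that summit. Of 13944 protein-coding promoters, taken as 100 bp to each side of the canonical TSS, 7.50% held the motif. The 100 bases upstream of 4 starts are shown in the direction of each gene, with TATCGATA (palindromic) or GGTCACAC in capitals. They set these starts beside Mer, which has Motif 1 and a summit, and sav, which has neither motif and no optimal summit. Absence of both motifs did not set sav apart. The promoters of yki, hpo, mats and ex, taken in the same way, held neither motif, and each of these genes had a start summit. Outside that promoter window, hpo had TATCGATA 80 bp from its summit and mats had GGTCACAC 35 bp from its own. The yki and ex summits had neither motif within 100 bp. A match describes the letters and is not a site shown to be used.
wts, chr3R:30806620-30806719, minus strand: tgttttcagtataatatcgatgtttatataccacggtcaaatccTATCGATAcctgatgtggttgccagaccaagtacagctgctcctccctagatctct
kibra, chr3R:14724262-14724361, minus strand: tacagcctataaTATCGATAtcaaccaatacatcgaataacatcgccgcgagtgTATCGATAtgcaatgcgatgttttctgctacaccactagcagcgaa
Mer, chrX:19693501-19693600, minus strand: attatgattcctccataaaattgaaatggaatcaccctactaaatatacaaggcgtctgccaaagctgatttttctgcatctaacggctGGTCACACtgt
sav, chr3R:23061305-23061404, minus strand: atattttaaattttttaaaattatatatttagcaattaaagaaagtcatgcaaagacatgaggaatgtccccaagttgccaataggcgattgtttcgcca

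All 3 genes of the apical complex had a summit within 500 bp of their own TSS with no other gene starting there. Over protein-coding genes of any length, 18.5% had a start summit with no other protein-coding gene starting there. Expanded, a FERM-domain protein whose gene is itself a target of Yorkie, had the most optimal summits of the 10 genes, 3. The regions of its strongest and weakest summits overlapped. With summits closer than 400 bp counted once, ex had no more than yki and wts. The ex gene (FBgn0004583) lies at 431227 to 448701 on the plus strand of chromosome 2L. Its strongest summit, at 431265, lay in the 5′ UTR 38 bp downstream of the TSS, with a pooled signal of 320 (rank 962). The replicates gave 214 (rank 1047) and 107 (rank 898), and their summits lay 10 and 15 bp from the pooled one, to either side of it. A second summit, in an intron 4334 bp downstream of the TSS, had 214 pooled (rank 1929), 157 (rank 1783) in replicate 1 and 69.7 (rank 2054) in replicate 2. Among summits beyond 500 bp of a member's own TSS it was the strongest of the 10 genes. The third summit, 239 bp downstream of the TSS, had 80.1 pooled (rank 7164), close above the threshold. In replicate 1 its nearest overlapping region was the one already counted for the first summit, and in replicate 2 it had a region of its own with 50.5 (rank 3417).

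CATGTG, a variant of the E-box, lay beside both strong ex summits, 16 bp downstream of the first and 20 bp upstream of the second. Of all optimal summits, 14.9% had it within 100 bp. It was found at no other summit of the 10 genes. Both sites are shown in the direction of the gene with CATGTG in capitals. CACGTG was absent from within 100 bp of the ex summits. The nearest copy, 911 bp downstream of the TSS, lay under a pooled region of signal 32.7 and rank 15325.
ex 5′ UTR, chr2L:431268-431295, plus strand: ggacagcaaagCATGTGctttccactgg
ex intron, chr2L:435501-435621, plus strand: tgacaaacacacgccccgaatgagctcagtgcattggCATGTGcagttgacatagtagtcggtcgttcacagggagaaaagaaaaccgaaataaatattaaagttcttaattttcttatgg

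Merlin, the fly homologue of the NF2 tumour suppressor, and Kibra, its WW-domain partner, had pooled summits of similar strength at almost the same distance from their starts. The Mer summit (FBgn0086384; gene at 19689697 to 19693500 on the minus strand of chromosome X), at 19693400, lay in an intron 100 bp downstream of the TSS, with a pooled signal of 253 (rank 1418). Replicate 1 had 194 (rank 1227) there and replicate 2 had 43.0 (rank 4253), so like hpo it ranked lower in replicate 2. The replicate 1 summit lay nearer the start than the pooled one, 50 bp downstream of the TSS. GGTCACAC lay 8 bp upstream of the Mer TSS, an element found in 6.52% of promoters. It lay more than 100 bp from the pooled summit. The pooled list held 4 more regions in the Mer span, of which the strongest, 104 bp upstream of the TSS, had a signal of 76.2, just below the threshold. The kibra summit (FBgn0262127; gene at 14697689 to 14724261 on the minus strand of chromosome 3R), at 14724160, lay in the 5′ UTR 101 bp downstream of the TSS, with 276 pooled (rank 1224). The replicate regions nearest to it had 200 (rank 1161) and 72.1 (rank 1934). In replicate 2 the strongest region of the kibra span lay elsewhere, 345 bp downstream of the TSS, with a signal of 99.96 and rank 1027. The pooled list and replicate 1 had no summit between the start summit and about 1 kb downstream. Below the threshold, the 26573 bp of kibra held 19 further pooled regions, the most of the 10 genes, with signals up to 70.8.

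**Figure D2:**
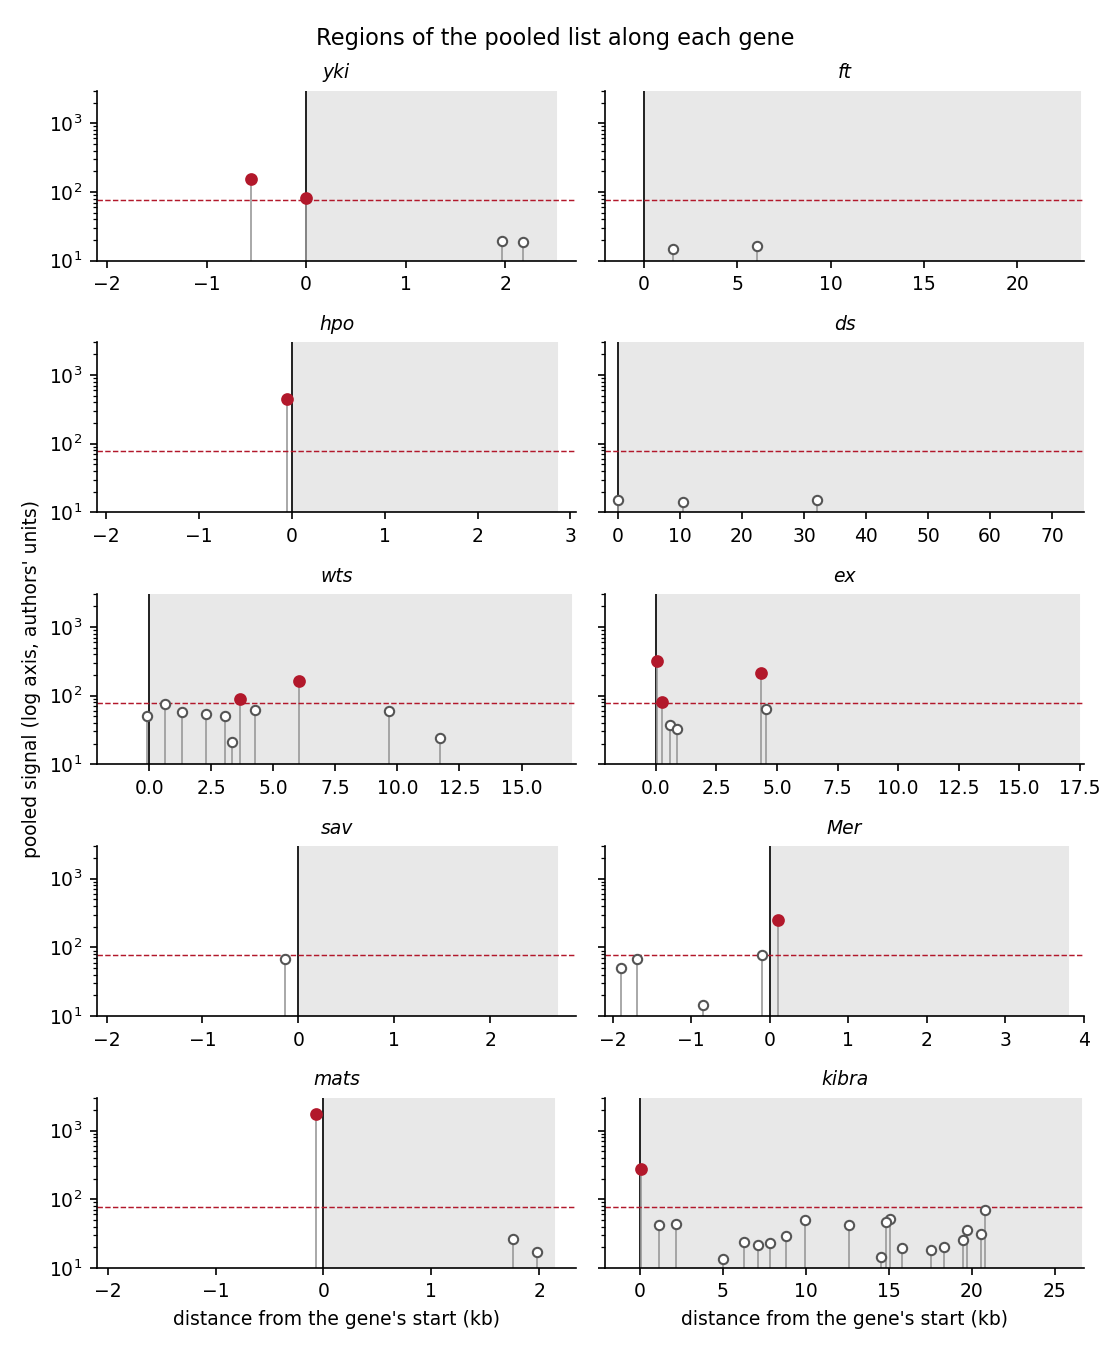
Summits of the pooled list in each gene span, by distance from the gene's 5′ end (kb) and pooled signal (log axis, authors' units); filled points are optimal summits, open points are regions below the threshold, the grey area is the gene and the dashed line the lowest optimal signal (77.1). The optimal summits sit at the start in hpo, mats, Mer and kibra and inside the gene in wts, and ft and ds have weak regions only.

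Neither cadherin gene had an optimal summit in its span, and the regions listed there were weak. Fat, the receptor cadherin, and Dachsous, its ligand, are encoded by long genes on chromosome 2L, ft (FBgn0001075) from 4198404 to 4221796 and ds (FBgn0284247) from 640013 to 714983, both on the minus strand. In the ft span the pooled list held 2 regions, the stronger with a signal of 16.4 and rank 25635. The strongest of replicate 1 was 10.3 (rank 28964) and that of replicate 2 was 15.5 (rank 12020). In the ds span it held 3, the strongest 15.0 (rank 27559), 19 bp upstream of the TSS. Replicate 1 listed 1 region in the ft span and 2 in that of ds, and replicate 2 listed 4 and 11. At ds the strongest of replicate 1 was 13.97 (rank 22883), 41 bp downstream of the TSS, and that of replicate 2 was 11.3 (rank 16060), 48008 bp downstream. The pooled values were below the lowest optimal signal of 77.1, and the replicate values below those of the regions ranked 7451 in the same lists, 54.0 and 26.3. For ft, an optimal summit of signal 155 lay 2506 bp from the TSS, in intergenic sequence outside the span. For ds, the nearest optimal summit was 96612 bp from the TSS, at the start of Dbp21E2. A distance at least that large was found for 2.75% of protein-coding genes. Of the 153 protein-coding genes at least as long as ds, 54.9% had an optimal summit in the span.

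Gene length differed between the members, and the shares differ with it over the genome. Of the 5 members under 5 kb (yki, hpo, sav, mats and Mer), 4 had a start summit, against 34.2% of protein-coding genes of that length. Of the 2 members of 5 to 20 kb, ex had one and wts did not (51.8% over the genome), and of the 3 members of 20 kb or more, kibra had one and ft and ds did not (45.5%). Counted over the whole span, 4 of the 5 short members had a summit (40.2% over the genome), both of the middle class did (61.1%), and 1 of the 3 long ones did (54.7%). Over the whole of their spans, 193 kb, the members had 5.69 optimal summits per 100 kb, against 7.30 in the spans of all protein-coding genes. The ds span, which had no optimal summit, made up 77.0 kb of the 193 kb, so the members' density depends strongly on that gene. For mats and yki the start summit was within 500 bp of another protein-coding gene's TSS, as it was for 51.5% of all protein-coding genes with a start summit. Counting only starts without such a neighbour left hpo, ex, Mer and kibra, 4 of 10, against 18.5% of protein-coding genes of any length.

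**Figure D3:**
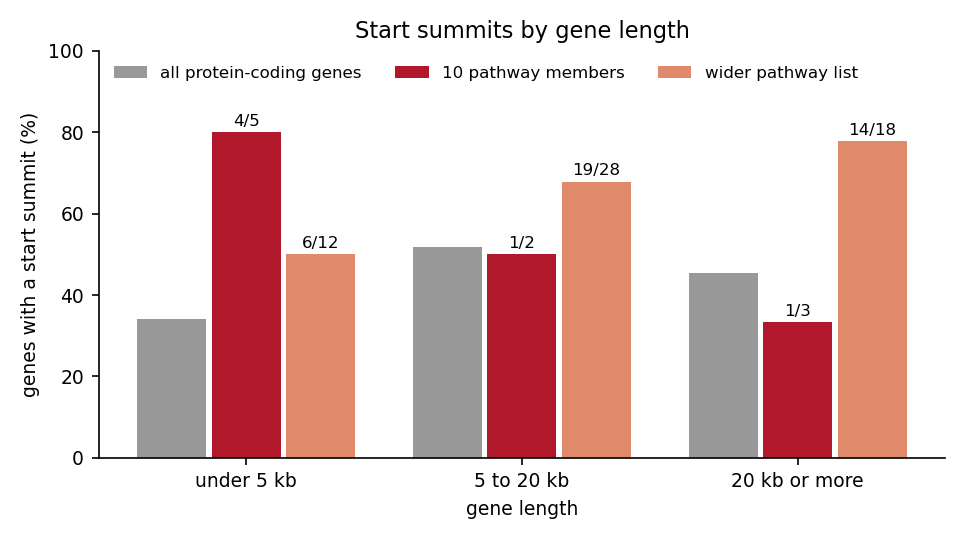
Share of genes with an optimal summit within 500 bp of a TSS (%) for all protein-coding genes, the 10 pathway members and the wider pathway list, by gene length; numbers over the bars of both lists are genes with a start summit over genes in the class. Among genes of 20 kb or more, 1 of 3 members and 14 of 18 genes of the wider list had a start summit, against 45.5% of protein-coding genes.

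The replicates listed most of the same places with different strength. Of the 11 member regions, 9 overlapped one of the 7451 strongest regions of each replicate, against 77.4% of all optimal regions; the exceptions were the yki start and the weaker wts region. The third ex summit had no region of its own in replicate 1, where its match is that of the first ex summit, so no ratio is given for it. At the other 10 the signal was higher in replicate 1, by 1.96-fold at mats to 6.72-fold at the weaker wts summit. Over the 7272 optimal peaks listed in both replicates the median ratio was 2.21 and the quartiles were 1.53 and 3.24. The ratios at hpo (4.53), Mer (4.52) and the weaker wts summit lay above the upper quartile. The scaling of the signal is not stated in the labels, so a ratio is read only against that of the other peaks.

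Of the 8 motifs searched, 5 were found at 1 or 2 of the members' summits and 3 at none. CACGTG lay within 100 bp of 1 of the 11, the one at mats, against 8.64% of all optimal summits. TATCGATA was found at 1 (hpo, against 6.19%), GGTCACAC at 1 (mats, against 5.44%) and CATGTG at 2, both at ex (against 14.9%). GAGAG, the core of the GAGA element, was found at 1, again mats, against 31.0% of optimal summits. CAGCTG (14.4% of optimal summits) and CATGCG (7.13%) were found at none, nor was CACGCG, which 747 of the 7451 optimal summits had. All were searched on both strands. With 11 summits, 1 summit more or less moves each of these shares widely.

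The surrounding pathway was examined through 59 further genes: upstream regulators, the Fat-Dachsous branch, nuclear partners of Yorkie and textbook targets. Of these, 39 had an optimal summit within 500 bp of a TSS (66.1%, against 38.1% of protein-coding genes). These genes are long, with a median of 12793 bp against 2166 bp over all protein-coding genes. In classes of length the counts were 6 of 12 under 5 kb, 19 of 28 from 5 to 20 kb and 14 of 18 at 20 kb or more, where protein-coding genes had 34.2, 51.8 and 45.5%. Without starts shared with another protein-coding gene, 21 of the 58 protein-coding genes of the list had a start summit, against 18.5%. That share is over protein-coding genes of any length and was not split by length.

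Upstream regulators had a start summit in 21 of 27 cases (77.8%), against 38.1% of protein-coding genes. The counts by role were not split by gene length, and differences between roles were not tested. The highest were mts (472), the catalytic subunit of the phosphatase PP2A, Git (452), a scaffold that promotes Hippo activation, and Sik3 (342), a kinase that acts on Salvador. The mts summit also lay at the start of Rack1 and the Git summit at that of Elp2. Among those without one were jub, a LIM-domain protein that holds Warts in check, and the polarity genes l(2)gl and Patj. In the Fat-Dachsous branch the count was 2 of 7 (28.6%, against the same 38.1%). The casein kinase gene dco (328) and the palmitoyltransferase gene app (226) had a start summit with no other gene there. The myosin gene dachs, Dlish and Fbxl7 had none, nor had fj and lft, which are added here after their values were seen. 

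Nuclear partners of Yorkie had a start summit in 11 of 16 cases (68.8%, against 38.1% of protein-coding genes). The highest was 14-3-3zeta (1405), which binds phosphorylated Yorkie, at a summit shared with RpLP0-like. Next came brm (506), the ATPase of the SWI/SNF remodeller, shared with Arl1, and the kinase gene Hipk (296), shared with Cypl. Hcf, hth and Mad had none within 500 bp. Of sd and Tgi, the DNA-binding partner of Yorkie and its corepressor, chosen here after their values were seen, each had a weak one (95.8 and 88.1), that of Tgi at the start of Abp1 as well. Textbook targets had a start summit in 5 of 9 cases (55.6%, against the same 38.1%). They were led by the cell cycle factor E2f1 (512), the caspase inhibitor gene Diap1 (242) and Myc (200.1). The E2f1 and Myc summits also lay at the start of a noncoding RNA. The growth-promoting microRNA gene mir-ban (bantam), placed here by its hairpin and not by its primary transcript, had none, nor had CycE and Ser.

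**Figure D4:**
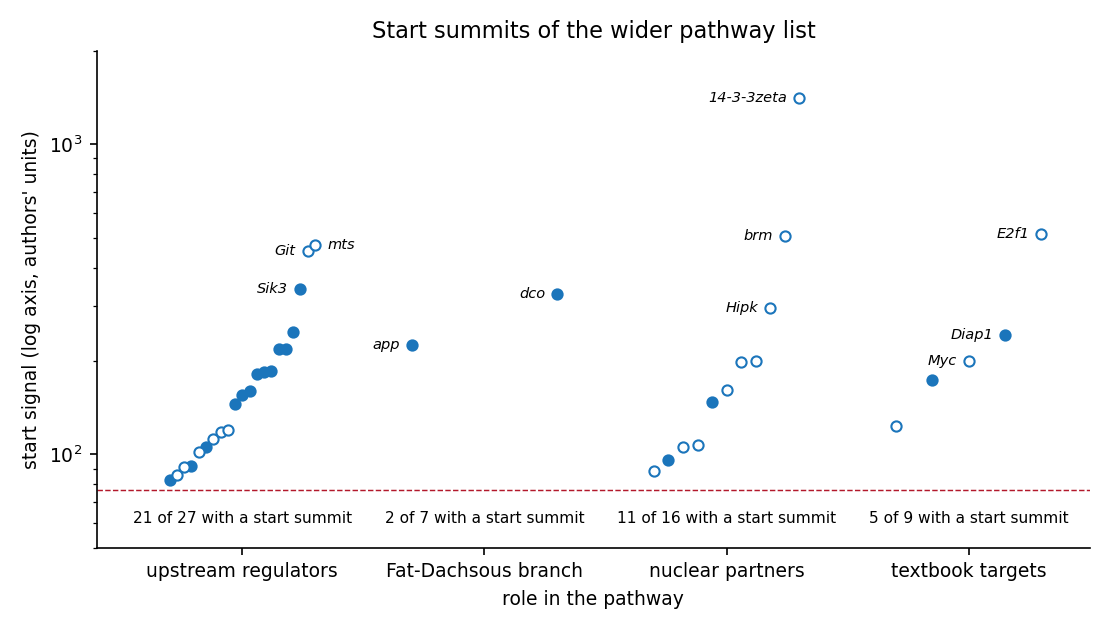
Signal of the strongest optimal summit within 500 bp of a TSS (log axis, authors' units) for each gene of the wider list that had one, by role; open points share the summit with another gene's start, and the dashed line is the lowest optimal signal (77.1). Counts along the bottom are genes with a start summit in each role, 21 of 27, 2 of 7, 11 of 16 and 5 of 9 from left to right. Over all protein-coding genes the share was 38.1%.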

How the data were processed

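The members and the wider gene list were chosen with earlier results of these data known. Deposited peak lists on dm6 were used: an optimal list cut at an irreproducible discovery rate by the authors, a pooled list and 1 list per replicate (30000 regions each), the last 3 holding peaks and background, per the file names and the listing deposited with them. For aligner and peak caller, the name and version are not given here, as none is in the sources used. The signal and the −log10 q-value of each region are the authors' deposited values. All 7451 optimal regions stand at the same −log10 q-value, 4.22, so regions were ranked by signal within a list. Read depth is unknown, and the 4 lists on dm3 and the control libraries were not analysed here. Summits are the start plus the deposited offset, and positions are 1-based. They were set against the Release 6 sequence (RefSeq) and the Ensembl release 115 annotation without transposable elements. A region's replicate value is that of the overlapping replicate region with the nearest summit. As no test between groups was possible, counts are given beside the share over all protein-coding genes. A start summit is one within 500 bp of any annotated TSS of the gene. Genes with more TSSs thus have more places to be counted, and the shares were not adjusted for this. Among the members mats had 2 annotated TSSs and each of the others 1. Named genes were all members, genes starting within 500 bp of their summits and, per role of the wider list, the 3 strongest and up to 3 without a start summit in alphabetical order. In that list 2 genes have a newer symbol (dachs and mir-ban). The counting was tested on simulated summits. Python 3.11.15, numpy 2.4.6, pandas 2.3.3 and matplotlib 3.10.9 were used.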

Additional observations from a re-analysis of the deposited data

How the results depend on the processing

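The members counted in the span stayed at 7, the same genes, with 1 kb upstream (42.3% of protein-coding genes), in the stronger 3726 peaks (29.5%) and in the 7451 strongest regions of replicate 1 (45.8%) and replicate 2 (40.9%). With 5 kb upstream ft joined them (8, against 52.9%). The members with a start summit numbered 6 at 250 bp (34.1%), at 1000 bp (41.5%) and without replicate 2 (39.0%). They numbered 5 in the stronger 3726 peaks (23.8%) and without replicate 1 (33.2%), where yki dropped out. A count of 4 without shared starts was chosen after seeing the data. Leaving out a replicate gave 10 to 14 summits in the spans and 33 to 40 genes of the wider list. In the stronger 3726 peaks the wider list had 25 genes with a start summit, down from 39, while the share of protein-coding genes went from 38.1% to 23.8%. CACGTG was found at 0 summits within 50 bp, since the mats E-box is centred 52 bp away. Member regions listed in both replicates numbered 8 when summits had to lie within 100 bp of each other. They numbered 4 when regions had to share 50% of each other. The share over all optimal regions was not computed for these settings, so whether such a drop is particular to the members is unknown. The median rank of the strongest summit, 1224, was 1161 to 1616 with a single replicate. No paired analysis was possible because there is 1 group. Read depth behind each signal is unknown, and a region not listed is not shown to be unbound.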

Other observations

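The spans of the 10 genes hold 18 copies of CACGTG in the reference sequence, and 1 of them (5.56%), at mats, lies within 100 bp of an optimal summit. Over the spans of all protein-coding genes the count was 637 of 12441 (5.12%). The ds span holds 5 copies, ft and ex 3 each, and wts, Mer and kibra 2 each; yki, hpo and sav hold none. Of the 17 copies away from a summit, the ex copy 911 bp downstream of the TSS was the only one under any region of the pooled list. The ds copy 1558 bp downstream of its start and the Mer copies 965 and 1219 bp downstream of theirs lay under none.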
